A study of Mus musculus with 16 samples.

Results

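The comparison described here sets conventional T cells (Tconv, CD4 T cells that are not regulatory) from the fat of mice with Hpgd-deleted regulatory T cells (Treg) against Tconv from wild-type (WT) mice. Its members are 9 of the 16 RNA-seq libraries of the series, taken by their sample titles: 5 titled Tconv KO and 4 titled Tconv WT. The remaining 7 libraries are Treg, 4 from KO and 3 from WT mice, and they enter only the estimate of the spread and the values set beside Tconv. The question, as the series title and design text give it, is how deletion of Hpgd in Treg bears on the tissue around them. The mice were 12 weeks old, of strain C57BL/6JRcc, and the cells came from visceral adipose tissue (VAT), the fat around the abdominal organs. The line is labelled as Hpgd fl with Foxp3-YFP-Cre in all 16 samples, WT included, so the genotype of a library rests on its title. The Cre recombinase is driven by Foxp3, a gene of Treg, so the deletion is aimed at Treg and the Tconv of KO mice were neighbours of deleted cells rather than targets. No treatment is labelled. According to the design text 5 deleted and 4 WT animals were used. No label links a given library to its animal, so p-values measure the spread between these libraries. The surface markers of the sort are not stated in the labels.

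Hpgd encodes 15-hydroxyprostaglandin dehydrogenase, which oxidises prostaglandin E2 (PGE2) and so ends its activity. PGE2 is a lipid signal made from arachidonic acid by cyclooxygenases and prostaglandin E synthases, and cells sense it through the receptors EP1 to EP4, encoded by Ptger1 to Ptger4. EP2 and EP4 raise cyclic AMP (cAMP), which in T cells activates protein kinase A and the factor CREB, dampens signals of the T cell receptor and lowers production of IL-2. Treg in fat carry the IL-33 receptor and the lipid-sensing nuclear receptor PPAR gamma and are known for restraining inflammation of that tissue.

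Values are normalised read counts: the authors' gene counts divided by a size factor of each library, plus 1, so that 1 stands for no reads. Library values are given in the order WT 1 to 4 and KO 1 to 5. Depth was 3390220 to 7875721 reads in Tconv WT and 5897515 to 56653600 reads in Tconv KO, where KO 3 was the deepest. Reads were found for 13366 to 15308 genes in a WT library and for 14411 to 15879 in a KO library. Libraries correlated across genes at r of 0.845 to 0.875 within Tconv WT, 0.846 to 0.917 within Tconv KO and 0.833 to 0.907 between them, so the lowest pairs crossed the genotypes and the ranges overlapped. Correlations of Tconv with Treg libraries ran from 0.800 to 0.869. Single libraries made up the leading principal components of Tconv. The first component (18.4% of the variance) set WT 3 apart, the second (16.5%) KO 3, and the third (15%) WT 4. Cd4, the co-receptor that defines these cells, read 6217, 6918, 4854 and 7026 in WT and 6486, 7949, 6373, 6793 and 5030.2 in KO. Foxp3 read 20.6, 1, 1 and 39.3 in the WT and 1, 1, 1.89, 4.99 and 1 in the KO libraries, against 279 to 616 in the 7 Treg libraries. Hpgd had reads in a single Tconv library, KO 3, at 6.20 from 41 reads. No test of it is given, since the other 8 libraries are tied at no reads.

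Across 14319 genes tested, 0 passed at an adjusted p under 0.05 (0%) in limma, a linear model with a shared estimate of the spread, and the smallest adjusted p was 0.656. With no adjustment, 781 genes lay under 0.05 (5.45%), of which 435 (3.04%) were higher and 346 (2.42%) lower in Tconv KO. A second limma method, voom on whole reads, also called 0 genes, with 1311 at an unadjusted p under 0.05. Every KO library read above every WT library for 124 genes (0.866%) and below every WT library for 115 (0.803%), together 239 (1.67%). The mean log2 level was higher in KO for 7400 genes (51.7%), and the median log2 fold change, KO minus WT, was 0.02. The comparison bounded change mainly at well expressed genes. The unadjusted 95% interval of the fold change lay within a 2-fold change in both directions for 4312 genes (30.1%). That share was 0 of 5011 genes with a Tconv mean under 50, 167 of 3198 (5.22%) from 50 to 200, 2824 of 4701 (60.1%) from 200 to 1000, and 1321 of 1409 (93.8%) at 1000 or more. From its centre to either end, the interval spanned a median of 3.67-fold in the lowest of these classes and 1.34-fold in the highest. For no gene with a Tconv mean under 50 did the interval therefore exclude a 2-fold change in both directions, whereas for most strongly expressed genes a change of that size lies outside it.

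**Figure D1:**
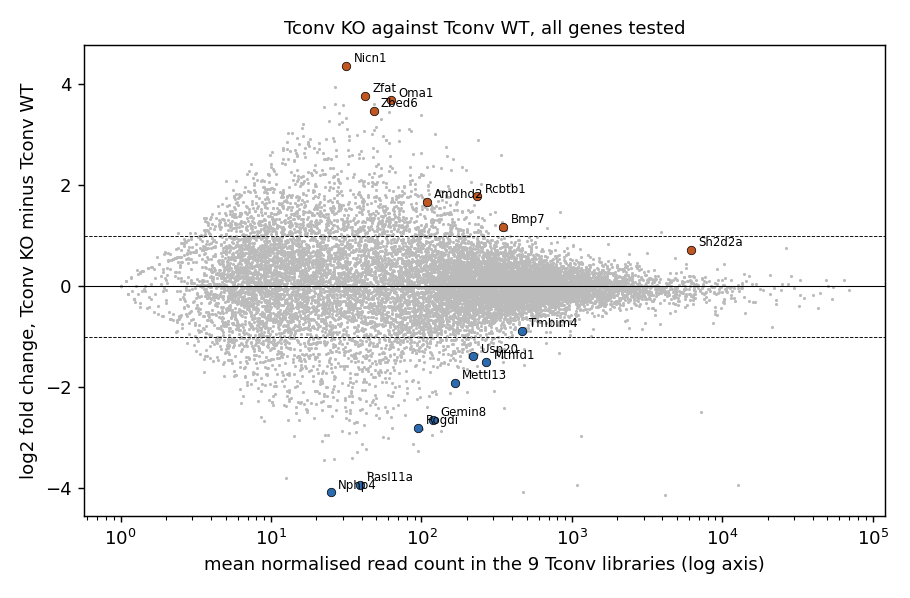
Each grey point is 1 of the 14319 genes tested, with its mean normalised read count over the 9 Tconv libraries on a log axis and its log2 fold change, Tconv KO minus Tconv WT. Coloured points are the 16 genes with the smallest unadjusted p among named genes whose groups did not overlap, 8 higher (orange) and 8 lower (blue); dashed lines mark a 2-fold change, and 0 genes passed the adjusted test.

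The 22 lists of T cell genes, described by counts and medians with no test of a list, together held 410 tested genes. Of these, 0 passed, and 16 were higher and 13 lower at an unadjusted p under 0.05 (7.07%, beside 5.45% of all genes tested). In 6 the groups did not overlap (1.46%, beside 1.67% of all genes tested). These shares of all genes also stand beside the counts of each list below. The mean was higher in KO for 187 of the 410 genes, and the median log2 fold change was −0.03. A 2-fold change lay outside the interval for 210 of them (51.2%), more than the 30.1% of all genes, and these lists hold many strongly expressed genes.

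Most T cell identity and receptor signalling genes had an interval inside a 2-fold change. Of 20 identity genes, 11 were higher and 9 lower in KO, with log2 fold changes from −0.19 to 0.20, a median of 0.01, and 18 with an interval inside a 2-fold change. Ptprc, which encodes the phosphatase CD45 found on all white blood cells, read 12786, 13295, 13592 and 13149.7 in WT and 14063, 15489, 12490.4, 12605 and 14484 in KO. Its log2 fold change was 0.06 with a 95% interval of -0.17 to 0.29, and the groups overlapped. Lat, the membrane scaffold that the T cell receptor phosphorylates, read 4270.2, 5187, 6119 and 5259 and 6159, 6395, 6253, 5372 and 5279 (log2 fold change 0.18, interval -0.13 to 0.50). Lcp2, the adaptor SLP-76 that joins Lat, read 6251, 4696, 5027 and 5005 in WT and 4203, 5367, 4320.0, 4713 and 4284 in KO (-0.19, -0.51 to 0.12). For each of these genes, 3 KO libraries lay just outside the WT range, above it for Lat and below it for Lcp2, and the other KO libraries lay inside. Of 24 receptor signalling genes, 10 were higher, 23 had an interval inside a 2-fold change, and the median was −0.04. Lck, the kinase that starts the signal, read 10119 to 15683 over the 9 libraries with an interval of -0.21 to 0.44. Ptpn6, the phosphatase SHP-1, was the member with the smallest p: 1560.2, 1282, 989 and 805 in WT against 726, 627, 1146, 766 and 579 in KO (-0.59, SE 0.33, limma adjusted p = 0.931). KO 3 read above the lower pair of WT libraries, so the groups overlapped. Cd28, the costimulatory receptor, gave 0.01 with an interval of -0.45 to 0.48.

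**Figure D2:**
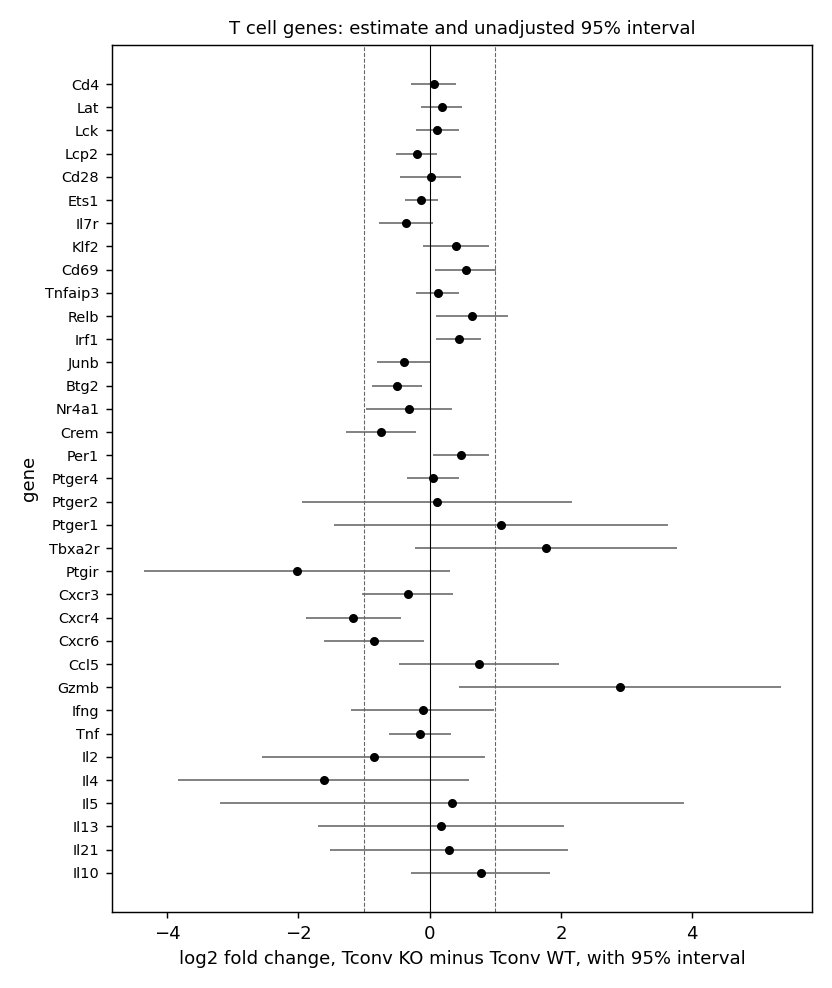
Points give the log2 fold change, Tconv KO minus Tconv WT, of T cell genes and prostanoid receptors, and bars the unadjusted 95% interval from limma; dashed lines mark a 2-fold change. Cd4, Lat, Lck and Ets1 have short bars around 0, while low or uneven genes such as Ptger1, Ptgir, Il4 and Il5 have long bars. The bars of Ptger1 and Il5 pass a 2-fold change in both directions, and that of Ptgir runs from -4.35 to 0.31.

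Ptger4 was the prostanoid receptor that Tconv carried at the highest level, and its level was bounded. Per kilobase of exon its mean normalised read count over the 9 libraries was 170, against 78.1 for the thromboxane receptor Tbxa2r, 31.7 for Ptger2, 28.4 for the prostacyclin receptor Ptgir and 11.4 for Ptger1. The ranges of Tbxa2r (4.85 to 147 per kilobase), Ptger2 (0.97 to 82.0) and Ptgir (0.00 to 99.6) overlapped one another, whereas the range of Ptger4 (133 to 215) lay above those of all others named here but Tbxa2r. Normalised read counts of Ptger4 were 1174, 1162, 884 and 1197 in WT and 1035, 1428, 1355, 1014 and 945 in KO. WT 3 read lowest of all 9, and the other WT values lay within the KO range. The log2 fold change was 0.06 with an interval of -0.34 to 0.45, so a 2-fold difference in either direction lies outside it, although exons of Ptger4 overlap those of Gm15937 and Ttc33. Ptger2, the other receptor that raises cAMP, read 427, 178, 6.03 and 241 in WT and 158, 222, 73.2, 127 and 60.5 in KO. Its interval of -1.94 to 2.17 on the log2 scale leaves changes of several fold either way, and WT held both the highest and the lowest library. Ptgir read 194, 13.2, 333 and 31.4 and 1, 8.01, 223, 8.98 and 49.0 (-2.02, SE 1.12, adjusted p = 0.931 in limma), and its highest values fell in WT 1, WT 3 and KO 3. Ptger1, whose exons overlap another gene, gave 1.08 (-1.46 to 3.63) and Tbxa2r 1.77 (-0.22 to 3.76). The PGE2 receptor Ptger3, the prostaglandin D2 receptors Ptgdr and Ptgdr2, and the prostaglandin F receptor Ptgfr did not reach the filter, with no value above 91.5, that of Ptger3 in KO 3. Fewer cells of a kind and less RNA per cell cannot be told apart in such bulk libraries, here and below.

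Of the 15 tested genes that make or break down prostanoids, of 20 listed, 2 had an interval inside a 2-fold change. In KO 6 were higher and 9 lower, with a median of −0.15 and 0 at an unadjusted p under 0.05. Ptges3, a PGE synthase that is also a chaperone partner, read 1211 to 1586 in WT and 1054 to 1498 in KO, with an interval of -0.54 to 0.25. Ptges2, another PGE synthase, read 57.9, 63.9, 14.1 and 76.4 and 80.0, 52.4, 35.7, 98.3 and 146, where WT 3 was the lowest and KO 5 the highest. Cbr1, a carbonyl reductase that can use PGE2, read 340.1, 403, 157 and 200.3 in WT and 380.4, 151, 156, 340.0 and 47.2 in KO, a range that in KO covers all of WT but its highest library.

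Genes of the cAMP signal and its response lay on both sides of 0. Of 30 tested, 12 were higher and 18 lower in KO, 0 passed, 2 were higher and 1 lower at an unadjusted p under 0.05, and the median was −0.05. Crem, which encodes repressors of CREB and is itself a target of cAMP, read 4752, 3478, 7578 and 3987 in WT and 3694, 1770.5, 3275, 3714 and 2272 in KO. WT 3 was the highest, and KO 1 and KO 4 read above the lowest WT library, WT 2. The log2 fold change was -0.74 (SE 0.25, unadjusted p = 0.00858, adjusted p = 0.858). Per1, a clock gene with a known CREB site, was on the other side of 0, with 1859, 1600.4, 2597 and 1674 in WT and 3348, 2825, 3012, 2324 and 1952 in KO (0.48, SE 0.21, adjusted p = 0.888 in limma). Its groups overlapped through WT 3. Nr4a1, an orphan nuclear receptor induced by the T cell receptor as well as by cAMP, read 6869 to 15876 in WT and 6343 to 15048 in KO, and its interval was -0.97 to 0.33.

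Promoters were read for the cAMP response element, since EP2 and EP4 act through CREB and the cAMP list is the group of genes nearest to PGE2. In windows of 300 bases, from 250 before to 50 after each start in RefSeq (GRCm38.p6), the full palindrome TGACGTCA occurred in 588 of 32851 windows (1.79%) and its core TGACGT, on either strand and so including the palindrome, in 2468 (7.51%). Of 22 cAMP list genes with a window, the core was found for 8 (36.4%), beside 12.5% of all tested genes with a window: Adcy9, Prkar1a, Creb3l2, Pde4a, Pde4b, Per1, Rgs2 and Nr4a3. The full palindrome was found for 1 of the 22 (4.55%), Prkar1a, beside 3.36% of tested genes. The stretches for the 5 whose match lies before the start and outside every annotated exon are shown, 5′ to 3′ on the strand of the gene, with the core in capitals as TGACGT or, where it lies on the opposite strand, as ACGTCA. They come from chr11:69100000-69100045 (plus) for Per1, chr1:144004310-144004355 (minus) for Rgs2, chr6:37442319-37442364 (minus) for Creb3l2, chr9:21184030-21184075 (plus) for Pde4a and chr16:4420499-4420542 (minus) for Adcy9. The Per1 and Pde4a stretches lie inside these genes, in front of an internal start.
Per1: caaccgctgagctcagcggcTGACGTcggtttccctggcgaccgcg
Rgs2: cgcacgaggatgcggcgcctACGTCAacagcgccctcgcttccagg
Creb3l2: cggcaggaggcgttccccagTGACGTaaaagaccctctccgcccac
Pde4a: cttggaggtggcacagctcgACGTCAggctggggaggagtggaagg
Adcy9: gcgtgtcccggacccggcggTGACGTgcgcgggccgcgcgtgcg
A match describes these letters and is not evidence of binding.

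Genes with the core in their window did not stand apart in Tconv. Of 10847 tested genes with a window, 1359 (12.5%) held the core, and of these 0 passed and 77 (5.67%) had an unadjusted p under 0.05, against 5.15% of genes without it. The median log2 fold change was 0.01 with the core and 0.01 without. For the full palindrome, held by 365 tested genes (3.36%), 0 passed and 17 (4.66%) had an unadjusted p under 0.05, with a median of −0.00. The genes shown differed among themselves. Rgs2, a brake on G protein signals, read 11032, 6265, 12269 and 12531 in WT and 6851, 4840.4, 16070.3, 4968 and 5965 in KO, so KO 3 was the highest of all 9, KO 1 lay just above the lowest WT library and the other 3 KO libraries lay below it. Creb3l2, a CREB-related factor, read 129 to 358 in WT and 247 to 320.3 in KO. Pde4a, a phosphodiesterase that degrades cAMP, read 77.5, 25.4, 8.04 and 69.7 and 9.51, 3.34, 48.9, 1 and 1, and Adcy9, an adenylate cyclase that makes it, 136, 1, 4.02 and 1 and 29.0, 1, 65.1, 10.6 and 1, both at levels where single libraries had no reads.

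Activation and immediate early genes were split in direction. Of 20 activation genes, 12 were higher and 8 lower in KO with a median of 0.14, and 2 were higher at an unadjusted p under 0.05: Cd69 and Irf4. Cd69, an early activation marker that also holds T cells in tissue, read 3020.1, 3295, 4409 and 4640.2 in WT and 5736, 4286, 7897, 5778 and 4618 in KO. The log2 fold change was 0.55 (SE 0.22, adjusted p = 0.863 in limma), and 2 of the KO libraries read below the highest WT library. Irf4, a transcription factor that scales with receptor signal, read 329.8, 220.2, 169 and 781 and 721, 673, 777, 600.1 and 407 (0.98, SE 0.44, adjusted p = 0.897), and WT 4 was the highest of all. Of 18 immediate early genes, 9 were higher and 9 lower, with a median of −0.01 and 12 intervals inside a 2-fold change. Btg2, an antiproliferative gene, was the 1 member with an unadjusted p under 0.05, at 11915, 9084, 10404 and 10609 in WT and 9204, 6501, 10348, 5793 and 6266 in KO (-0.49, SE 0.18, adjusted p = 0.858). KO 1 and KO 3 lay within the WT range and the other 3 below it. Junb, an AP-1 subunit, read 33185 to 39777 in WT and 21145 to 37155 in KO (-0.39, interval -0.80 to 0.02). It overlaps exons of Prdx2.

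Of 18 NF-kB genes, 12 were higher and 6 lower in KO, with a median of 0.12, 0 passed, and Relb was the 1 member higher at an unadjusted p under 0.05. Relb, the subunit of the non-canonical pathway, read 320.5, 214, 305 and 257 in WT and 279, 551, 465, 497 and 384 in KO (0.64, SE 0.26, adjusted p = 0.863 in limma). KO 1 lay within the WT range and the other 4 above it. Several members followed single libraries rather than genotype. Birc3, an inhibitor of apoptosis, read 2149, 797, 3482 and 792 in WT and 1171, 1471, 2792, 1242 and 1231 in KO, high in WT 1, WT 3 and KO 3. With these 3 libraries left out together, 17 of the 18 were higher in KO, beside 49.4% of all genes tested in that fit, and 0 passed. That count follows in part from the choice, since the libraries left out are 2 of the 4 WT and 1 of the 5 KO and are high in members of the list. Rel, the c-Rel subunit that drives cytokine genes of T cells, gave 0.33 with all libraries, where it read 1244, 661, 1327 and 899 in WT and 1333, 992, 1609, 1166 and 1229 in KO. Rel and Birc3 were named after their values were seen. Tnfaip3, the deubiquitinase A20, read 23805 to 41621 in WT and 27333 to 40678 in KO, with an interval of -0.21 to 0.45 over all libraries.

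Interferon stimulated genes were near balance, with 13 of 25 higher, a median of 0.02 and 1 at an unadjusted p under 0.05. That gene was Irf1, an interferon-induced transcription factor, which read 2209.5, 1594, 1932 and 2363 in WT and 3207, 3128, 2392, 2387 and 2609 in KO. Each KO library read above each WT library, though KO 3 and KO 4 were close to WT 4. The log2 fold change was 0.44 (SE 0.16, adjusted p = 0.858 in limma), and exons of Irf1 overlap the annotated gene Gm17334. Irgm1, an interferon-induced GTPase, lay the other way at 866, 772, 649 and 961 and 723, 716, 478, 516 and 617 (-0.42, interval -0.91 to 0.07). Ifnar1, a chain of the type I interferon receptor, read 937, 1404, 1273 and 2219.8 in WT and 2038, 2154, 1710.3, 1811 and 2199.8 in KO (0.51, SE 0.24, adjusted p = 0.9), with WT 4 the highest library. Ifngr1, a chain of the interferon gamma receptor, gave -0.23 with an interval of -0.54 to 0.08. Over all 26 cytokine receptors, 10 were higher and 15 had an interval inside a 2-fold change, with a median of −0.11.

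Of the cytokines of the Th1 kind, Tnf alone had an interval inside a 2-fold change. Ifng, the cytokine that defines Th1 cells, read 3357, 3466, 2052 and 4307 in WT and 3865, 2226, 1988, 3085 and 4275 in KO, and the groups covered almost the same range. Its log2 fold change was -0.11 with an interval of -1.20 to 0.98, which reaches past a 2-fold difference on the lower side but not on the higher. Tnf, an inflammatory cytokine, read 1146, 1067, 1141 and 982 and 1137, 983, 1166, 887 and 777 (-0.14, -0.62 to 0.33), so a 2-fold change in either direction lies outside its interval. Il2, the T cell growth factor, read 122, 102, 176 and 137 in WT and 25.3, 57.9, 157, 60.8 and 141 in KO, with KO 1, 2 and 4 below every WT library and KO 3 and 5 inside the WT range (-0.85, -2.55 to 0.84). Ccl5, a chemokine of effector T cells, read 10566, 20152, 20112 and 21908 and 17379, 57579.6, 16661, 41270.4 and 32357 (0.75, -0.47 to 1.97). WT 1 was the lowest, KO 1 and KO 3 lay within the WT range, and KO 2, 4 and 5 lay above it. Gzmb, a granzyme, read 51.7, 1, 277 and 123 in WT and 379, 440.5, 318, 378 and 177 in KO (2.90, SE 1.17, adjusted p = 0.863 in limma). It had no reads in WT 2. WT 3 alone of the WT libraries lay inside the KO range, and KO 5 alone of the KO libraries read below WT 3. Over 28 Th1 and cytotoxic genes, 17 were higher, 2 higher and 1 lower at an unadjusted p under 0.05, 4 had an interval inside a 2-fold change, and the median was 0.12.

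Th2 genes had the lowest median of the helper lists. Of 18 tested, 4 were higher and 14 lower in KO with a median of −0.38, 0 passed, and 3 were lower at an unadjusted p under 0.05. Cd200r1, an inhibitory receptor found on Th2 cells, read 475, 273, 588 and 367 in WT and 197, 215, 317, 104 and 164 in KO. KO 3 lay above WT 2, and the other 4 KO libraries lay below every WT library (-1.12, SE 0.34, unadjusted p = 0.00389, adjusted p = 0.824). Il6, an inflammatory cytokine, read 44.4, 9.12, 149 and 67.4 and 1, 37.6, 23.9, 4.19 and 1, a low gene with overlapping groups. Gata3, the factor that directs Th2 cells, read 4051, 1988, 3874 and 2590.2 in WT and 2031, 1821, 5155, 2117 and 1794 in KO, high in WT 1, WT 3 and KO 3 (-0.35, -0.98 to 0.28). Il5, a Th2 cytokine that recruits eosinophils, read 599.7, 1, 426 and 2.13 and 46.0, 52.4, 940.4, 38.5 and 1, so the same 3 libraries stood far above the rest. Il4 read 152, 13.2, 60.4 and 21.3 in WT and 33.8, 1, 85.9, 24.9 and 1.89 in KO, and Il13 had reads in 1 WT and 2 KO libraries, at most 24.1. Without those 3 libraries, 9 of 17 Th2 genes were higher in KO and the median was 0.03, a count that follows in part from leaving out libraries that are high in members of the list. Their summed level of the markers of type 2 innate lymphoid cells, several of which Th2 cells share, was also the highest, as given with the other marker lists below.

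The remaining helper cytokines were uneven between libraries. Il17a, the Th17 cytokine, had reads in WT 3 alone (172). Il21, a helper cytokine for B cells, read 232, 74.1, 11.1 and 15.6 in WT and 88.6, 32.9, 64.4, 85.6 and 23.2 in KO (0.29, -1.52 to 2.11). Il10, an anti-inflammatory cytokine, read 372, 888, 287 and 169.9 and 711, 632, 464, 727 and 561: WT 2 was the highest, and every KO library read above the other 3 WT libraries (0.78, SE 0.51, adjusted p = 0.95 in limma). In the Treg libraries Il10 read 3199.8 to 20723 in WT and 3836 to 17184 in KO. Of 12 Th17 genes 7 were higher with a median of 0.14, and of 15 genes of follicular helper cells 5 were higher with a median of −0.11. Tox2, a factor of follicular helper cells, read 165, 111, 2.01 and 2.13 and 102, 453, 27.0, 76.0 and 136 (2.38, adjusted p = 0.887), and 3 of the KO libraries lay between the lower and the higher pair of WT libraries. Icos, their costimulatory receptor, gave -0.11 with an interval of -0.60 to 0.37.

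**Figure D3:**
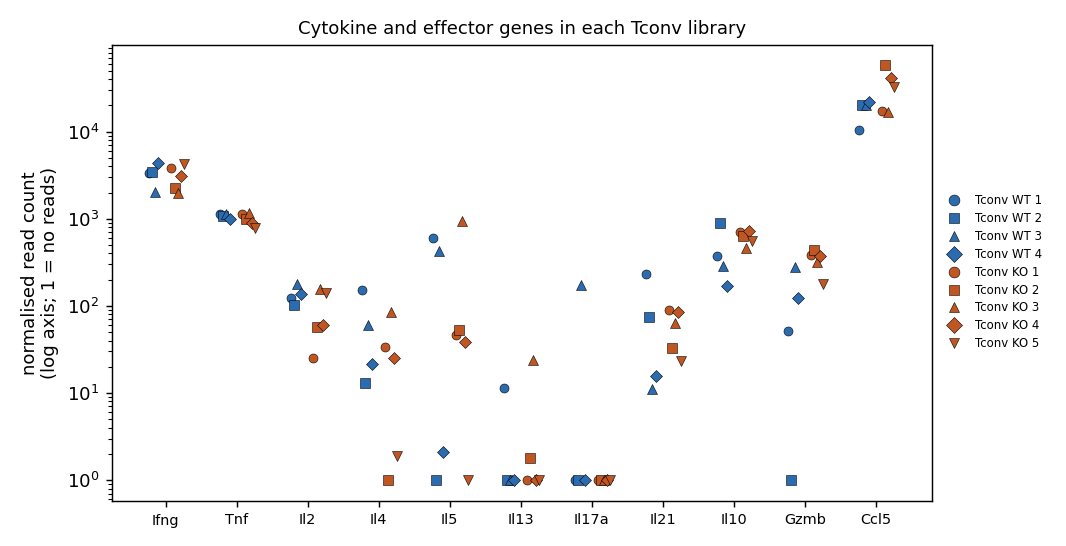
Normalised read counts (log axis, where 1 is no reads) of cytokine and effector genes in each of the 4 Tconv WT (blue) and 5 Tconv KO (orange) libraries, with a marker shape per replicate number. Ifng and Tnf overlap between genotypes, and Il5 stands high in WT 1, WT 3 and KO 3.

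Chemokine receptors held 1 gene in each direction whose groups did not overlap, and 0 passed. Over all genes tested, 1.67% had such groups. Of 20 receptors of chemokines and migration lipids, 7 were higher and 13 lower with a median of −0.11, and 3 were lower at an unadjusted p under 0.05. Without WT 1, WT 3 and KO 3, 10 were higher and 10 lower, with a median of −0.05. That count follows in part from leaving out libraries that are high in a member of the list, Ltb4r1. Cxcr4, the receptor for the stromal chemokine CXCL12, read 562, 474, 517 and 853 in WT and 355, 251, 235, 335 and 174 in KO. Every KO library lay below every WT library, with a log2 fold change of -1.16 (SE 0.35, interval -1.89 to -0.43, unadjusted p = 0.00354, adjusted p = 0.824). Cxcr4 lies at chr1:128588199-128592293 on the minus strand (GRCm38, GENCODE M21) with no exon of another gene across it. Cxcr6, which binds CXCL16 and marks tissue-resident T cells, read 4769, 3368, 4056 and 2929 in WT and 2289.7, 1589.7, 3737, 1322 and 2078 in KO, and KO 3 was the only KO library inside the WT range (-0.85, SE 0.37, adjusted p = 0.895). Cxcr3, the Th1 chemokine receptor, read 4362, 6772, 3404 and 5573 and 3635, 5018, 3015, 3445 and 4491 (-0.34, -1.03 to 0.36), with overlapping groups. Ltb4r1, the receptor for leukotriene B4, read 1358, 139, 1796 and 135 in WT and 138, 294, 2308, 99.9 and 164 in KO, again high in WT 1, WT 3 and KO 3. In the Treg libraries Cxcr4 read 358 to 514 in WT and 134 to 516 in KO.

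Checkpoint receptors and resting T cell genes were mostly bounded. Of 15 checkpoint receptors, 6 were higher and 10 had an interval inside a 2-fold change, with a median of −0.02. Lag3, an inhibitory receptor for MHC class II, was the member with the smallest p, at 1317, 719.5, 423 and 348 in WT and 282, 376, 91.5, 567 and 205 in KO. WT 1 read highest, and KO 2 and KO 4 lay within the WT range (-1.24, SE 0.47, adjusted p = 0.858 in limma). Pdcd1, which encodes PD-1, gave -0.34 (-0.83 to 0.14), and Tigit −0.00 (-0.57 to 0.57), where KO 3 read lowest and KO 2 highest. Of 18 resting and memory genes, 9 were higher, 12 were inside a 2-fold change, the median was −0.01, and 1 was lower at an unadjusted p under 0.05. That gene, Dapl1, named after its values were seen, was low, at 66.1, 37.5, 25.2 and 12.3 in WT and 21.7, 6.45, 19.1, 11.4 and 1 in KO (-1.67, SE 0.75). Klf2, a factor that keeps T cells recirculating, read 1845, 1895, 1787 and 2295 in WT and 3108, 1655, 2690.4, 2683 and 3008 in KO, and 4 of the 5 KO libraries lay above every WT library while KO 2 was the lowest of all 9 (0.40, -0.10 to 0.90). Ets1, a lymphoid factor, gave -0.12 with an interval of -0.37 to 0.12. Il7r, the receptor for the survival cytokine IL-7, read 6211, 4872, 5894 and 4951 in WT and 4437, 3517, 4957, 3863 and 4585 in KO. KO 3 alone of the KO libraries lay inside the WT range (-0.36, -0.78 to 0.05).

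Among 22 genes typical of Treg, 6 were higher and 16 lower in Tconv KO, with a median of −0.31, 0 passed and 1 in each direction had an unadjusted p under 0.05. The higher one, Ebi3, a subunit of the cytokine IL-35 named after its values were seen, read 1, 5.06, 1 and 1 in WT and 56.9, 1, 1, 32.9 and 101 in KO, so 3 KO libraries were above the rest. Socs2, the lower one, a suppressor of cytokine signals, read 1416, 843, 1449 and 702 in WT and 772, 363, 981, 528 and 616 in KO, with KO 1 and KO 3 inside the WT range and the other 3 KO libraries below it. Capg, an actin-capping protein, read 2118, 2223, 2276 and 1174 and 1425, 973, 2458, 1140.2 and 1064. WT 4 lay with the lower KO libraries and KO 3 with the higher WT libraries. Without WT 1, WT 3 and KO 3, 12 of the 22 were higher in KO and the median was 0.03, with the limit given for the Th2 list. The summed level of the list was 23188, 21679, 23930.4 and 16725 in WT and 20517, 18785, 17992, 18531 and 15882 in KO. Its part in other results was not tested.

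In the lipid and the glycolysis list, 1 gene each had groups that did not overlap, beside 1.67% of all genes tested. Of 32 genes of PPAR and lipid handling, 15 were higher, with a median of −0.04, 2 were higher and 1 lower at an unadjusted p under 0.05. Plin3, a coat protein of lipid droplets, read 697, 287, 634 and 486 in WT and 222, 181, 273, 208 and 101 in KO, each KO library below each WT library, though KO 3 and WT 2 were close (-1.40, SE 0.45, adjusted p = 0.832 in limma). Dgat1, which makes triglycerides, gave 0.01 with an interval of -0.98 to 1.00. Of 17 glycolysis genes, 7 were higher and 14 were inside a 2-fold change, with a median of −0.09. The 1 gene at an unadjusted p under 0.05 was higher: Slc16a3, the lactate exporter MCT4, named after its values were seen, read 21.7, 1, 41.3 and 1 in WT and 50.9, 40.0, 5.94, 50.5 and 46.3 in KO (2.04, SE 0.95). Slc2a3, the glucose transporter GLUT3, read 844, 707, 599 and 717 in WT and 526, 590.1, 523, 489 and 493 in KO. The groups did not overlap, but WT 3 and KO 2 were close, and the log2 fold change was -0.44 (SE 0.21, adjusted p = 0.9). Hk1, a hexokinase whose exons overlap Hk1os, read 620.3, 543, 634 and 769.9 and 594, 535, 501, 389.5 and 159 (-0.68, -1.37 to 0.01), and Ldha, lactate dehydrogenase, gave -0.23 (-0.54 to 0.08).

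Of 23 proliferation genes, 15 were higher in KO with a median of 0.20, 0 passed, and 2 were higher and 1 lower at an unadjusted p under 0.05. The higher pair belong to the MCM helicase that opens DNA for replication. Mcm2 read 246, 319.7, 259.6 and 331 in WT and 318, 695, 738, 480.4 and 579 in KO, with KO 1 inside the WT range and the other 4 above it (0.91, SE 0.40, adjusted p = 0.897). Mcm6 read 679, 862, 399.5 and 924 and 1041, 1619, 1059.5, 649 and 1288, with KO 4 inside the WT range (0.67, SE 0.30, adjusted p = 0.897). Tubb5, a tubulin, gave -0.16 with an interval of -0.61 to 0.30.

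Transcripts encoded in the mitochondrial genome were lower in KO by their means for all 13 genes, with a median log2 fold change of −0.38, 0 passed, and 3 at an unadjusted p under 0.05. The last count was 1 without WT 1, 2 without WT 3 or KO 2, 7 without KO 1, 5 without Treg KO 2 and 6 without Treg KO 1. Without WT 1, WT 3 and KO 3 together it was 0, with 12 of 13 lower and a median of −0.22. The transcripts made up 2.95%, 2.84%, 2.42% and 2.26% of reads in the WT libraries, a mean of 2.62% ± 0.329 (SD, n = 4). In the KO libraries they made up 2.68%, 1.83%, 1.73%, 2.24% and 2.21%, a mean of 2.14% ± 0.376 (SD, n = 5). KO 1 lay inside the WT range, and the other 4 KO libraries lay below it, KO 4 and KO 5 by little. Genes named after their values were seen show how uneven the group was. ND2, a complex I subunit, read 5593, 3792, 4338 and 3772 in WT and 3327, 2460.1, 2407, 3079 and 3492 in KO, and the groups did not overlap (-0.56, SE 0.22, adjusted p = 0.858 in limma). ATP6, a subunit of ATP synthase, read 28548, 28968, 29449.5 and 21769.6 and 20598, 15189, 17274, 6555 and 24005, with KO 5 above WT 4 and KO 4 the lowest by far (-0.81, SE 0.31, adjusted p = 0.858). COX1, a subunit of cytochrome oxidase, gave -0.26 with an interval of -0.63 to 0.12. The share of mitochondrial reads also reflects RNA and library quality, and its part in other results was not tested. In the Treg libraries it averaged 1.84% in WT and 1.58% in KO.

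All 40 cytosolic ribosomal protein genes had an interval inside a 2-fold change. By their means 33 were lower in KO, with a median of −0.08, 0 passed and 0 had an unadjusted p under 0.05. That lean moved with the scaling and with single libraries: 24 of 40 were lower under quantile scaling, and 19 were lower without WT 3. Their share of reads was 3.39% to 4.00% in WT and 2.92% to 4.59% in KO. Rpl23 read 3095, 3059.7, 4420.1 and 3472 in WT and 2613, 2059.6, 3073, 3076 and 3159 in KO (-0.33, -0.74 to 0.08), and Rps27 gave -0.03 (-0.44 to 0.38). B2m, the light chain of MHC class I, read 43110.5, 41789.9, 42496 and 44066 in WT and 36657, 36821, 41746, 39560.0 and 36247 in KO, with every KO library below every WT library by a small margin (-0.17, -0.43 to 0.10), a direction that turned under quantile scaling (0.04). Cd82, a tetraspanin of the cell surface, read 7304, 7474, 6749 and 6586 and 5345, 5924, 5528, 6133 and 6029.7, also without overlap (-0.28, SE 0.13, adjusted p = 0.898).

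The genes with the smallest p were taken from genes without overlap between KO and WT libraries and with a mean of 50 or more in the higher group, so their direction follows from how they were chosen. On the higher side, Sh2d2a, the T cell adaptor TSAd that binds Lck, lies at chr3:87846755-87855722 on the plus strand. It read 4744, 3995, 4202 and 4913 in WT and 6199, 12165, 5109.9, 7605 and 7152 in KO. The highest KO library, KO 2, lay far above the others, and KO 3 lay just above WT 4 (0.72, SE 0.19, adjusted p = 0.717 in limma). In Treg libraries it read 3455 to 4442 in WT and 3712 to 5268 in KO. Bmp7, a bone morphogenetic protein that can drive brown fat formation, lies at chr2:172868012-172940321 on the minus strand and read 274, 279, 122 and 173 in WT and 532, 446, 521, 433 and 366 in KO. KO libraries were close to each other, and WT 1 and WT 2 lay nearer to them than WT 3 and WT 4 (1.18, SE 0.29, adjusted p = 0.656). Bmp7 in Treg read 370.4 to 728 in WT and 447 to 877 in KO.

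Amdhd2, an enzyme of amino sugar breakdown, read 30.0, 74.1, 25.2 and 80.9 in WT and 160.3, 201, 111, 181 and 116 in KO (1.68, SE 0.41). Rcbtb1, a protein with RCC1 repeats and a BTB domain, read 115, 159, 147 and 30.3 and 359, 278, 348, 287 and 391 (1.78, SE 0.41), with WT 4 far below the other WT libraries. The others of this side were low in WT, where single libraries had few or no reads. Oma1, a protease of the inner mitochondrial membrane, read 16.5, 27.4, 3.01 and 1 in WT and 94.6, 90.6, 135, 72.8 and 126 in KO (3.69, SE 0.82). Nicn1, a subunit of a tubulin-modifying complex, read 1, 3.03, 1 and 1 and 37.5, 68.0, 106, 19.3 and 48.1 (4.36, SE 1.00). In Treg, Oma1 read 56.1 to 159 in WT and 15.6 to 252 in KO and Nicn1 1 to 35.9 and 1 to 57.6, so libraries of both genotypes reached the level of Tconv KO. Zfat, a zinc finger factor, read 6.17, 3.03, 1 and 10.0 in WT and 42.3, 72.7, 83.3, 48.9 and 112 in KO (3.77, SE 1.01). Zbed6, a repressor encoded within Zc3h11a, with whose exons it overlaps, read 19.6, 1, 21.1 and 1 and 36.3, 72.7, 97.3, 125 and 58.7 (3.48, SE 0.94). Their limma adjusted p-values all lay from 0.656 to 0.717.

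**Figure D4:**
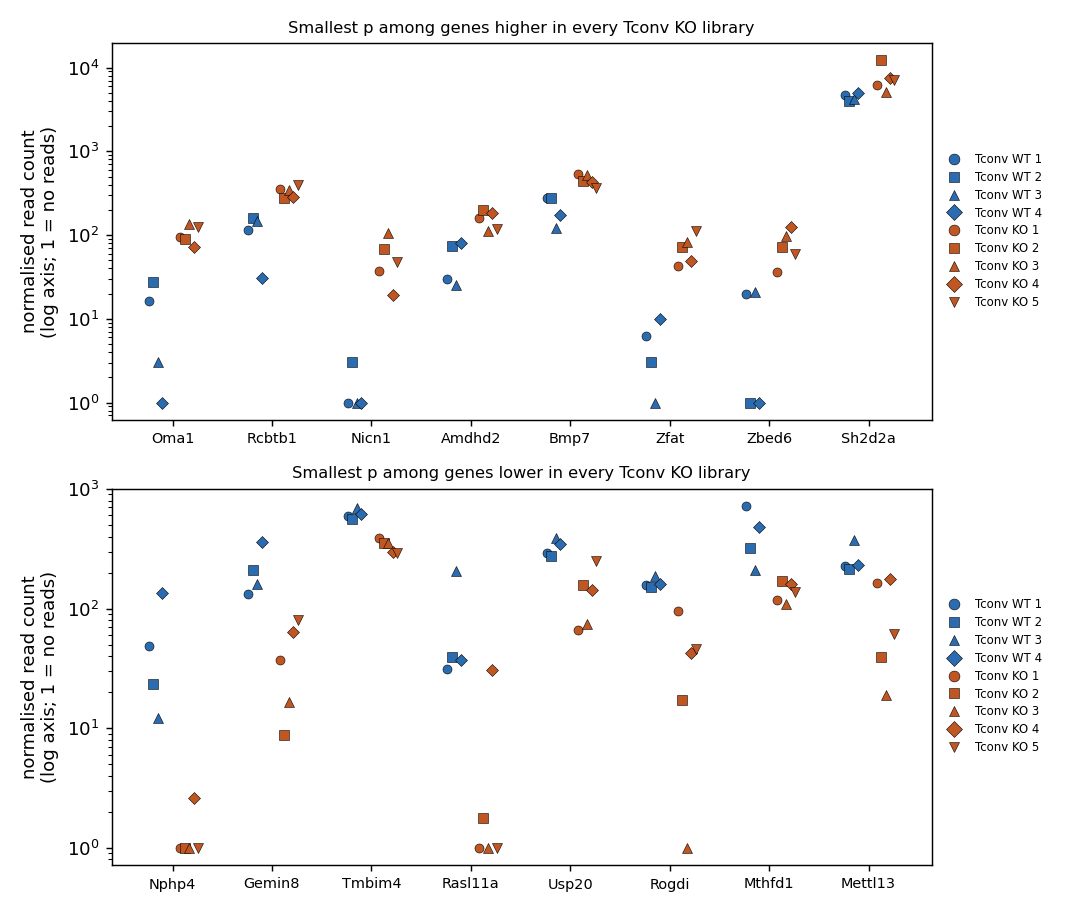
Normalised read counts (log axis, where 1 is no reads) per Tconv library of the 16 genes with the smallest p among genes with groups that did not overlap, WT in blue and KO in orange, with a marker shape per replicate number. Sh2d2a and Tmbim4 have reads in every library and a narrow gap, while Nicn1, Zfat, Nphp4 and Rasl11a differ mainly by libraries with few or no reads.

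On the lower side, Tmbim4, a Golgi protein that protects from cell death, had the tightest groups. It lies at chr10:120201590-120224917 on the plus strand, overlapping exons of Irak3, and read 596, 563, 696 and 622 in WT and 393, 352, 355, 295 and 291 in KO. All KO libraries lay well below the lowest WT library (-0.88, SE 0.20, interval -1.30 to -0.47, adjusted p = 0.656 in limma). In the Treg libraries it read 542 to 838 in WT and 780.0 to 915 in KO. Usp20, a deubiquitinase, read 293, 275, 388 and 349 in WT and 66.7, 158, 73.7, 142 and 251 in KO (-1.39, SE 0.36), and KO 5 came close to WT 2. Mthfd1, an enzyme of folate metabolism overlapped by Gm47525, read 725, 324, 209 and 477 and 118, 171, 108, 161 and 138 (-1.51, SE 0.42), with WT 1 the highest. Mettl13, a methyltransferase of a translation elongation factor, read 226, 216, 371 and 232 in WT and 163, 39.2, 18.9, 178 and 61.4 in KO (-1.91, SE 0.55). KO values of Mettl13 spread widely, and KO 1 and KO 4 came near WT.

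Gemin8, a member of the complex that assembles splicing particles, read 132, 210.1, 159 and 362 in WT and 37.5, 8.79, 16.6, 63.2 and 80.1 in KO (-2.64, SE 0.59). Rogdi, a protein linked to the vesicle proton pump and overlapped by Gm42477, read 158, 151, 186 and 162 and 94.6, 17.4, 1, 42.5 and 46.3 (-2.81, SE 0.78), with no reads in KO 3. WT libraries were close to each other for Rogdi, whereas KO libraries ranged widely. Rasl11a, a small GTPase, read 31.0, 39.6, 207 and 37.0 in WT and 1, 1.78, 1, 30.5 and 1 in KO (-3.93, SE 1.01), and KO 4 nearly reached WT 1. Nphp4, a protein of the primary cilium, read 48.6, 23.3, 12.1 and 135 in WT and at most 2.60, in KO 4, among the KO libraries (-4.09, SE 0.85). Its Treg WT libraries had no reads, and Treg KO read 1, 34.8, 16.6 and 2.95. Since a fitted fold change of genes without reads depends on the added constant, those of Nphp4, Rasl11a, Rogdi, Oma1, Nicn1, Zfat and Zbed6 describe these values and bound nothing. Fitted values of other genes with no reads in some libraries, such as Gzmb, Slc16a3, Ptgir and Il6 above, depend on that constant too.

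Whether the genotype effect of Treg differed from that of Tconv was tested over all genes. In limma 0 of 14319 genes passed (0%), 748 (5.22%) had an unadjusted p under 0.05, the smallest adjusted p was 0.293, and voom called 0 with 846. A call appeared for 1 gene without Tconv KO 3, 2 genes without Treg KO 2 and 1 gene without Treg WT 1. Of the 16 genes above, chosen on their Tconv values, Treg values are given for Sh2d2a, Bmp7, Oma1, Nicn1, Tmbim4 and Nphp4, with no test.

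Markers of other cells set single Tconv libraries apart, and 1 platelet marker separated the genotypes. Pf4, a chemokine of platelet granules named after its values were seen, read 24.8, 25.4, 35.2 and 23.5 in WT, from 12 to 34 reads, while no KO library had a read of it. Against the value of 3 reads a library, it was at least 11.5-fold lower in KO. Its unadjusted p of 6.1e-05 was the smallest of all 14319 genes, and it did not pass (limma adjusted p = 0.656). Pf4 stood outside the genes above because its mean was under 50. In Treg it read 5.56, 1 and 1 in WT and 14.3, 1, 1 and 16.6 in KO. Ppbp, a platelet chemokine too, read 174, 1, 12.1 and 1 in WT, while every KO library lacked it (unadjusted p = 0.0403). Gp9 and Gp1bb, of the same marker list, had reads in WT 1 alone, at 27.9 and 7.20. Itga2b, also of that list, read 75.4, 37.5, 3.01 and 4.38 in WT and 1, 28.3, 44.98, 45.7 and 1.89 in KO. Its groups overlapped (log2 fold change -0.295, unadjusted p = 0.806 in limma), so reads of this list were not confined to WT. WT 1 carried neutrophil transcripts: the 12 markers in the table, all with reads in at least 1 Tconv library, summed to 19070.2, 1082, 897 and 1375 in WT and 884, 487, 945, 352 and 525 in KO. Retnlg, a neutrophil granule gene, read 396, 1, 1 and 4.38 in WT and 1, so no reads, in all KO libraries, while Mmp9 made up most of the sum outside WT 1. The 13 macrophage markers summed to 1296, 126, 377 and 99.1 and 188, 287, 134, 158 and 244. Csf1r, the receptor that macrophages need, read 132, 1, 1 and 2.13 in WT and 1, 1, 1.13, 1.8 and 1 in KO, so it was high in WT 1 alone. Other members of the list did not all follow it. Lyz2, at 833, made up most of the sum in WT 1, where Mrc1 and Cd163 had no reads. Apoe was highest in WT 3 (292) and Cd68 in KO 2 (189.6). The 11 red cell and platelet markers summed to 1632, 140.0, 160159 and 161 in WT and 158, 64.7, 207, 66.2 and 148 in KO. WT 3 stood above the rest, mostly through the globin genes Hba-a2 (112366), Hba-a1 (37008) and Hbb-bt (9529). Alas2, the first enzyme of haem synthesis in red cells, read 1176 there. Of the 8 members tested, 0 were higher in KO, 0 passed and 5 were lower at an unadjusted p under 0.05, beside 2.42% of all genes tested. WT 4 was the highest for the 10 markers of CD8 T and NK cells, at 429, 361, 158 and 1247 in WT and 365, 429, 572, 349 and 176 in KO. Ncr1, an NK cell receptor, read 8.24, 1, 1 and 67.4 in WT and none of the KO libraries had a read of it, whereas Cd8a read 1, 5.06, 1 and 6.63 and 61.8, 72.7, 289, 13 and 1, highest in KO 3. Cd8b1, of the same list, did not share the pattern of Cd8a. It read 129, 117, 7.04 and 124 in WT and 93.4, 279.9, 139.7, 114 and 6.33 in KO, with overlapping groups.

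The 12 markers of type 2 innate lymphoid cells summed to 17432, 9166, 24885 and 11266 in WT and 11251, 10390.3, 28867, 10509.6 and 10336 in KO. Gata3, Rora and Id2, which are not confined to these cells, made up most of the sum in every library. Il1rl1, the IL-33 receptor, read 1566, 25.4, 1746 and 201 and 72.8, 116, 2548, 190.1 and 116, and Arg1, arginase, 16.5, 5.06, 861 and 1 and 16.8, 2.56, 286, 7.38 and 1. WT 1, WT 3 and KO 3 led the sum and Il1rl1, and WT 3 and KO 3 led Arg1, while Cd4 in the same libraries read 6217, 4854 and 6373. The 9 B cell markers summed to at most 296 and the 11 dendritic cell markers to at most 891, both in WT 1. The 10 adipocyte markers summed to at most 250.2, with Adipoq, the adipocyte hormone, read in WT 2 alone (21.3). The 13 stromal and endothelial markers summed to 604, 696, 784 and 454 in WT and 776, 519, 1309, 508 and 872 in KO, highest in KO 3, where Pecam1 (CD31), which T cells also carry, read 1134. Mcpt8 and Epx, of basophils and eosinophils, had no reads in any Tconv library, and of 9 gamma delta T cell markers 1 was in the table, with reads in KO 4 alone. The part of these cells in the results was not tested, beyond the fit without WT 1, WT 3 and KO 3. In that fit 0 of 13950 genes passed, with 853 at an unadjusted p under 0.05.

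**Figure D5:**
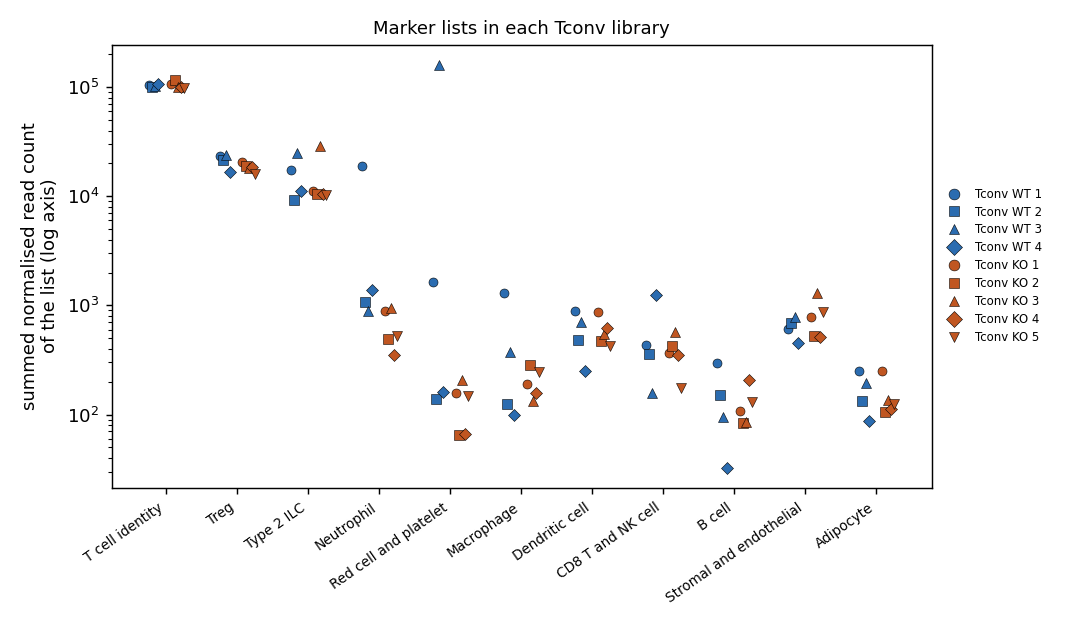
Summed normalised read counts (log axis) of the markers of each cell type in each Tconv library, WT in blue and KO in orange, with a marker shape per replicate number. T cell identity genes are level over the 9 libraries, while neutrophil markers in WT 1, red cell markers in WT 3 and CD8 and NK markers in WT 4 stand above the other libraries.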

How the data were processed

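RNA-seq of 9 Tconv and 7 Treg libraries was analysed. Per the labels' protocols, cells were isolated by collagenase and DNase digestion after perfusion and sorted by flow cytometry, and SMART-seq2, a kit without strand marking, turned 10 ng of RNA into libraries for sequencing on a NextSeq 500. Per the submitters' processing notes, the tools were kallisto 0.44, CASAVA 1.8, DESeq2 without a version, R 3.3.1 and Partek 6.6, with build mm10, and no role is stated for any of them. The authors deposited a never-negative signal for 19540 genes: as its values show, read counts divided by a size factor per library, plus 1. Values minus 1 were whole multiples of 1 step per library (100% within 0.1 of a read), which gave reads per library. The value of 3 reads ran from 1.38 in Tconv KO 3 to 7.09 in Tconv WT 2, for counting error only.

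Values were taken as log2(deposited value + 1), which makes the fold changes of weakly expressed genes too small. The test took the 14319 genes that reached 10 in 3 or more of the 16 libraries, of which 10729 (74.9%) had reads in every Tconv library. One limma 3.58.1 model (R 4.3.3, mean-variance trend) over all 16 libraries in 4 groups gave 2-sided p-values with Benjamini-Hochberg adjustment, standard errors and unadjusted 95% intervals, and it was checked on simulated data. The threshold was an adjusted p of 0.05. The comparison, the members and the lists were chosen with earlier results of these data known, and lists are described by counts only.

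Named genes were Hpgd, Foxp3 and Cd4; the 8 smallest p in each direction among genes with groups that did not overlap and a higher mean of at least 50; per T cell list the 2 smallest p among members with a group mean of 50 or more and the highest mean; per marker list the 2 highest single library values; the 8 most and 5 least variable genes with a mean of 500 or more; and all prostanoid receptors and signature cytokines. A few genes are not reported here. Mitochondrial genes, some NF-kB genes, Pf4, Slc16a3, Dapl1, Ebi3, other markers and promoters were added after values were seen. Symbols were matched to GENCODE M21 (94.2% found) after hyphens were restored in 146 of them, and 32 of 137 named genes have exons that overlap another gene, whose reads cannot be told apart without strand. Promoter sequences are from RefSeq. The core of the cAMP response element was searched beside the full palindrome after matches of the latter were counted. Alternatives were pseudocounts, filters, quantile scaling, quality weights, voom, Tconv libraries only, a replicate block and leaving out libraries. Figures were drawn with matplotlib 3.10.9.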

Additional observations from a re-analysis of the deposited data

Results flagged for a closer look

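Single Tconv libraries lay apart from the rest of their group, by the share of the group's log2 range that lay between the library and its nearest neighbour. This gave 29 cases over 268 pairs of a named gene and a group. By the definition of the critical value used, Dixon's at 95%, chance names about 1 in 20 groups of normally spread values. The genes are no random draw, since several were named for a high value in 1 library, so the 2 shares are not compared. No case is explained here.

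KO 3 held 10 of the cases. It was the lowest KO library for Slc16a3 at 5.94 and the highest for Gata3 at 5155, Rora, a factor shared by Th17 and innate lymphoid cells, at 7388, Id2, a regulator of effector and innate lymphocytes, at 10464, Il1rl1 at 2548, Il13 at 24.1, Rgs2 at 16070.3, Ptger3 at 91.5, Ptgdr2 at 4.55 and Hpgd at 6.20. WT 3 held 6: highest for Zbtb46, a dendritic cell factor, at 181, Il17a at 172, Rasl11a at 207 and Mettl13 at 371, and lowest for Ptger4 at 884 and Ptges2 at 14.1. WT 1 held 4: highest for Prg2, an eosinophil granule protein, at 78.5, Il13 at 11.3 and Ptgdr2 at 4.10, and lowest for Ccl5 at 10566.

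KO 4 was the highest KO library for Nphp4 at 2.60, Cd163l1, a gamma delta T cell gene, at 2.60 and Rasl11a at 30.5. WT 2 was the highest WT library for Nicn1 at 3.03, Ebi3 at 5.06 and Ptgfr at 23.3, WT 4 the lowest for Capg at 1174 and ATP6 at 21769.6, and KO 2 the lowest KO library for Klf2 at 1655. WT 2 and KO 4 thus held 3 each, WT 4 held 2 and KO 2 held 1, while KO 1 and KO 5 held 0.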

How the results depend on the processing

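The count of genes called between Tconv KO and WT was 0 in all 26 alternatives run, with smallest adjusted p-values from 0.0711 (without WT 1) to 0.939 and 584 to 1311 genes at an unadjusted p under 0.05. The count with an interval inside a 2-fold change ran from 3624 to 4484 with 1 library left out at a time, and was 5525 with a pseudocount of 10 and 2864 without WT 1, WT 3 and KO 3 together, an alternative added after seeing the data, in which fewer libraries widen the intervals. The difference between the Treg and Tconv effects gave 0 to 2 genes with 1 library left out. Deviations of the 4 same-numbered Tconv pairs, each of a WT and a KO library, correlated at −0.022 to 0.052. Of the 4 WT libraries, 2 correlated best with their own number. Such pairs join different mice, so they cannot show pairing by animal. Same-numbered Treg and Tconv libraries of a genotype correlated at 0.079, 0.076 and 0.024 in WT and 0.053, 0.023, 0.032 and 0.053 in KO. Each value was the highest of that Treg library with any Tconv library of its genotype. Whether these pairs share an animal is not labelled, and the main fit held no term for them. The replicate block over Tconv libraries joins WT and KO libraries by number. With it 0 genes were called, with 684 at an unadjusted p under 0.05 and 4029 intervals inside a 2-fold change. No fit held a term for pairs of Treg and Tconv libraries within a genotype, so their bearing on the results was not tested.

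Of 103 named genes tested, 87 kept their direction in every alternative, a direction that the choice of genes fixes in part, 0 newly passed, and 16 with small or uneven differences turned in 51 of 1948 values. With quality weights these were Tigit (0.15), Dgat1 (−0.010), Rps27 (0.0060), Ptger2 (−0.10) and Il13 (−0.23); with a pseudocount of 10 Ptger2 (−0.10) and Il5 (−0.13); with quantile scaling Tigit (0.075), Rps27 (0.082), B2m (0.043) and Ptger2 (−0.13); and with the replicate block Tigit (0.034). Without the 3 libraries Cd4 (−0.11), Tigit (0.20), Ltb4r1 (0.23), Ptger4 (−0.11), Rps27 (0.029) and Ptger2 (−0.69) turned. With 1 library left out, the log2 fold change ran from −0.21 to 0.29 for Tigit, −0.33 to 0.46 for Dgat1, −0.12 to 0.12 for Rps27, −1.19 to 0.78 for Ptger2, −0.051 to 0.37 for Il13, −1.04 to 1.70 for Il5, −0.045 to 0.069 for Cd28, −0.055 to 0.15 for Cd4, −0.047 to 0.12 for Ptger4, −0.32 to 0.038 for Ifng, −0.29 to 0.023 for Icos, −0.0049 to 0.26 for Tnfaip3, −0.32 to 1.10 for Il21 and −0.18 to 1.77 for Ptger1. The cause was not tested. The planned edgeR and DESeq2 fits were not run, and voom was run on the recovered reads. Depth limits the low genes, and the shallowest library is WT 2.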

Other observations

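The spread between libraries of a group, as the pooled within-group SD of log2 values, had a median of 0.32 over 3095 Tconv genes with a mean of 500 or more. Among the genes with the largest spread, Hba-a2, an alpha globin, had an SD of 3.55, and S100a8, a neutrophil protein, of 3.69. Il1rl1 had an SD of 2.43, Plaur, the urokinase receptor, of 2.16, and Ltb4r1 of 1.90. Plaur read 713, 39.6, 2567 and 79.8 in WT and 87.3, 169, 1202, 220.4 and 83.6 in KO, so WT 1, WT 3 and KO 3 were the highest, as for Il1rl1 and Ltb4r1.

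At the other end, B2m (SD 0.0699), Actr3 of the actin-branching Arp2/3 complex (0.0805), the kinesin Kif5b (0.0808), the endoplasmic reticulum protein Tmbim6 (0.0829) and Cd82 (0.0865) were the steadiest. Kif5b read 1946, 1864, 2148 and 1968 in WT and 2139, 2069.7, 1855, 2053 and 2047 in KO, with a 95% interval of -0.26 to 0.34 on the log2 scale. Actr3 gave -0.46 to 0.21 and Tmbim6 -0.38 to 0.11, so for these genes a 2-fold difference lies outside the interval.

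Genes with reads numbered 14402.5 on average in Tconv WT and 15171 in Tconv KO, and the exact 2-sided permutation test over 126 splits gave p = 0.135. KO 3, the deepest library, had the most of the 9 Tconv libraries, at 15879. WT 2, the shallowest, had the most of WT, at 15308.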
